A study of Mus musculus with 6 samples.

Results

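Integrins are cell surface receptors that join the extracellular matrix to the actin cytoskeleton, and each receptor is a pair of 1 alpha and 1 beta subunit. Described here are 10 integrin genes in the developing mouse heart valve region, with 8 genes for alpha subunits (Itga1, Itga4, Itga5, Itga6, Itga7, Itga8, Itga9 and Itgav) and 2 for beta subunits (Itgb1 and Itgb5). They were taken by name, without use of their measured values, from a table of 18810 genes. Of 26 mouse integrin subunit genes looked for, 16 were in the table, and the 6 beside these 10 are given with the pathway. The RNA came from atrioventricular canal regions, which hold the mitral, tricuspid and aortic valves, dissected at embryonic day 15.5 (E15.5). Hearts of Scx-/- embryos (n = 3), which lack the transcription factor Scleraxis (Scx) in every cell, were compared with hearts of wild type Scx+/+ littermates (n = 3), all on the C57BL/6 strain. Each heart gave 1 library, and no cell type was sorted, so that fewer cells of a type and less RNA per cell cannot be told apart. The comparison asks which genes depend on Scx while the valves remodel.

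In a cell, the alpha subunit largely sets which ligand a receptor binds, and the beta subunit tail recruits talin, kindlin and the adhesion complex that connects to actin. The beta1 subunit can pair with every alpha subunit named here, whereas beta5 pairs with alphav alone. Alpha5, alpha8 and alphav receptors bind the RGD motif of fibronectin and related proteins, alpha1 binds collagen, alpha6 and alpha7 bind laminin, and alpha4 and alpha9 share a branch of the family and bind VCAM1, fibronectin variants or tenascin. In valves, interstitial cells use these receptors to hold and arrange a layered matrix.

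The level of a gene is given as RPKM, a read count scaled by exon length and by library depth. It does not correct for differences in the make-up of the libraries. The RPKM summed over all genes ran from 820019 in Scx+/+ replicate 1 to 2295481 in Scx+/+ replicate 2. Levels compared between libraries therefore depend on the scaling, as given at the end. Reads recovered from these values gave depths of 46427474 to 68571477 reads per library. The whole-gene RPKM of Scx was 33.6, 18.6 and 82.9 in the Scx-/- libraries and 29.5, 58.3 and 26.0 in the Scx+/+ libraries. This whole-gene value does not check the genotypes, since by the methods of the study the loss was measured in exon 1, and reads of the rest of the locus are counted. Summed markers of valve mesenchyme (all 6 of 6 in the table) were 328 to 501 RPKM in Scx-/- and 260.5 to 346 RPKM in Scx+/+, and of endothelium (6 of 6) 114 to 134 and 114 to 129.6. The mesenchyme sum rests mostly on Postn (mean 254 RPKM). On the log2 scale, 3 of these 6 mesenchyme markers were higher in Scx-/- and 3 were lower. Heart muscle transcripts were abundant in the dissected tissue. Summed cardiomyocyte markers (6 of 6) were 13911 RPKM in Scx-/- replicate 3 and 15727 in Scx+/+ replicate 2, above the 9391 to 12537 of the other 4 libraries. Of the 6 markers, Myh6, Tnnt2 and Actc1 were highest in these 2 libraries, whereas Myh7, Ryr2 and Nppa did not have both of them on top. In Scx-/- replicate 3, Myh7 (2148 RPKM) and Nppa (453 RPKM) were the second lowest of the 6 libraries, and Ryr2 was highest in Scx+/+ replicate 3 (55.9 RPKM). These 2 libraries are pointed out below where they set a result apart.

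Scx is a basic helix-loop-helix protein, a class of factors that bind the E-box, a motif with the letters CANNTG that reads the same on both strands. The 250 bases before the start of the gene were read from the RefSeq promoter table (GRCm38.p6) for 8 of the 10 genes; Itga6 and Itga7 had no entry. They are shown 5′ to 3′ on the strand of the gene for both beta genes, which held 0 and 3 matches, and for Itga5, the gene with the most negative difference between genotypes, with each CANNTG in capitals.
Itgb1 (chr8:128685404-128685653, plus strand): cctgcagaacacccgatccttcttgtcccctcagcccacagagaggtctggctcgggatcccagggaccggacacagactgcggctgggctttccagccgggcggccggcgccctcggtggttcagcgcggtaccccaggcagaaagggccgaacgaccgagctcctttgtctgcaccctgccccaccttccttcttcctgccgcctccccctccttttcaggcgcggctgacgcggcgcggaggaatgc
Itgb5 (chr16:33829415-33829664, plus strand): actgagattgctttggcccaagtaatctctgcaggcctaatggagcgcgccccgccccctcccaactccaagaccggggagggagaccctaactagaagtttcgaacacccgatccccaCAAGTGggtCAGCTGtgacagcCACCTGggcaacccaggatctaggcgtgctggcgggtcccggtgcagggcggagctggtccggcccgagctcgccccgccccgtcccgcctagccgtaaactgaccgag
Itga5 (chr15:103366792-103367041, minus strand): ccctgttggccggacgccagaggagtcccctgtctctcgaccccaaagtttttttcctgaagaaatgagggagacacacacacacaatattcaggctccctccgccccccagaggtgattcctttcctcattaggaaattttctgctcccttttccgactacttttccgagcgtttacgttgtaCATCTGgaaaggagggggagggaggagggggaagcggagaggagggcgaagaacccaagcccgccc
The stretch before Itgb1 held no match, as did that before Itgav. The 3 matches of Itgb5 lie 131, 122 and 109 bases before the start, and the single CATCTG of Itga5 lies 66 bases before it. Itga9 also held 3 matches, Itga8 held 2, and Itga1 and Itga4 held 1 each, so that 6 of the 8 stretches had at least 1. Of all 32851 promoters of the table, 66.2% held at least 1 over the same length. A match describes the letters of the window and is not a binding site.

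None of the 10 integrin genes passed the test for a difference between genotypes. Each gene was tested with limma on log2(RPKM + 0.1), a scale that understates the change of genes at low RPKM, and called at an unadjusted p below 0.05, the level the study used. On that test 0 of the 10 were called, where 731 of all 18810 genes, or 3.89%, were called (531 higher in Scx-/-, 200 lower). After Benjamini-Hochberg adjustment over all genes limma called 0 genes of the whole table, and the adjusted p of the 10 lay between 0.967 and 0.996. The 3 Scx-/- libraries overlapped the 3 Scx+/+ libraries for each of the 10, while the genotypes did not overlap for 9.5% of all genes. A difference in log2 below 0 was found for 7 of the 10 and for 36.2% of all genes. The median difference of the 10 was -0.05 against 0.10 over all genes. Without Scx-/- replicate 3 both medians were 0.14, and 6 of the 10 and 12496 of all 18810 genes lay above 0. With any other single library left out, the median of the 10 stayed below that of all genes. With 3 embryos against 3, an exact permutation test of a single gene cannot go below 0.1.

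**Figure D1:**
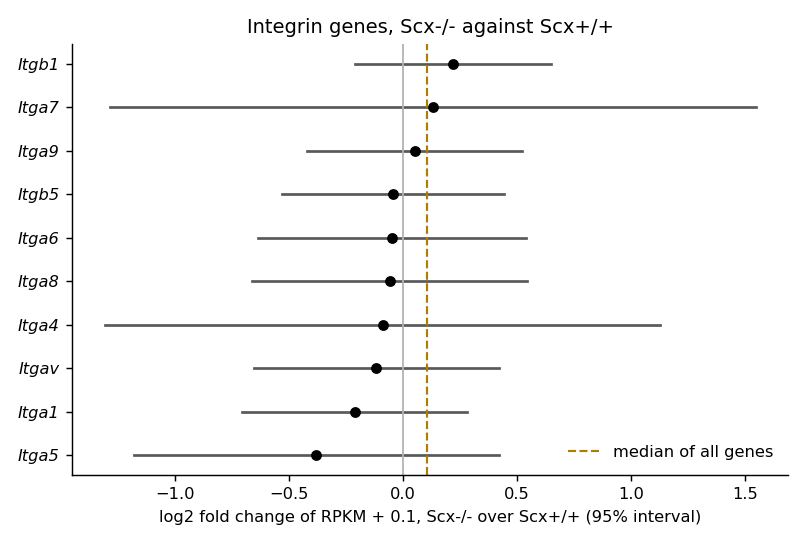
Log2 fold change of RPKM + 0.1 (horizontal axis, Scx-/- over Scx+/+) of each integrin gene, with points for the limma estimate and lines for its 95% interval. All 10 intervals hold 0, and they are widest for the low genes Itga4 and Itga7 and narrowest for Itgb1; the dashed line is the median of all genes.

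The levels themselves set the genes apart far more than genotype did. Itgb1 stood above every other integrin gene in all 6 libraries. A middle group of Itgb5, Itga1 and Itga6 followed, with means of 13.9 to 17 RPKM, and neighbours within it overlapped in both genotypes. Itga9, Itgav and Itga8 came next, with means of 5.64 to 8.2 RPKM, and again neighbours overlapped. All libraries of Itga6 lay above all libraries of Itga9 within each genotype. Itga5 lay below Itga8 without overlap in Scx+/+. In Scx-/- the 2 genes overlapped between libraries, but Itga5 was below Itga8 within each library, as in Scx+/+. Itga7 and Itga4 were lowest, with means under 1 RPKM, and overlapped each other. No value of the 10 genes was at the 0.095 RPKM that the authors put in for low values.

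**Figure D2:**
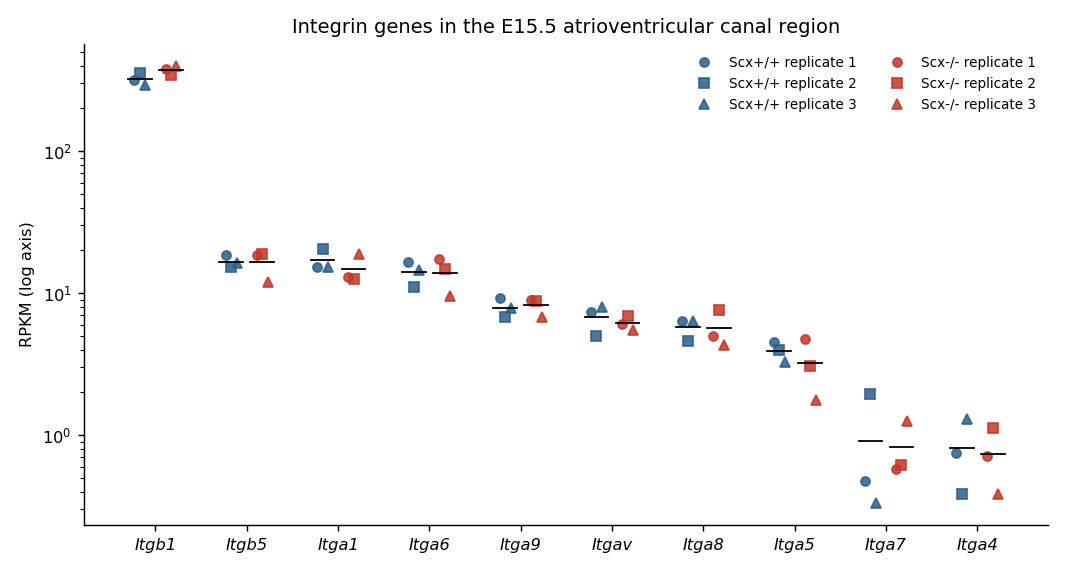
RPKM (log axis) of the 10 integrin genes, ordered by mean level, in the 3 Scx+/+ (blue) and 3 Scx-/- (red) libraries, with replicate 1 as circles, 2 as squares and 3 as triangles and black lines for group means. Itgb1 lies between 290.3 and 399 RPKM and the other 9 genes at 20.5 RPKM or less, and the colours overlap for every gene.

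Itgb1, the shared beta subunit, is ENSMUSG00000025809 at chr8:131209554-131257100 on the plus strand (mm9, as for all genes below). Its RPKM was 376, 346 and 399 in Scx-/- and 319, 354 and 290.3 in Scx+/+, with the replicates of each genotype in the order 1, 2, 3 here and below. The lowest Scx-/- library lay below the highest Scx+/+ library, and the other libraries of Scx-/- lay above all of Scx+/+. The means were 374 ± 26.6 and 321 ± 32.0 RPKM (SD, n = 3 each), a log2 difference of 0.22 (SE 0.19, limma unadjusted p = 0.276, adjusted p = 0.967). The 95% interval of the fold ran from 0.864 to 1.57. The log2 difference was the most positive of the 10 in the main fit. With 67102 to 97220 reads per library, counting error is small beside the spread between embryos. The difference depended on the scaling. It was 0.08 after quantile normalization, 0.11 once library medians were aligned at 0, and 0.09 once protein-coding sums were made equal. Removal of the exon length and GC trend also gave 0.09. Itga7 was more positive than Itgb1 after quantile normalization (0.19) and after removal of that trend (0.12). The CV over the 6 libraries, 11.2%, was the smallest of the 10.

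Itgb5 (ENSMUSG00000022817, chr16:33829751-33949239, plus strand) encodes the beta subunit that joins alphav in a receptor for vitronectin. It measured 18.5, 18.9 and 12.0 RPKM in Scx-/- and 18.4, 15.2 and 16.3 RPKM in Scx+/+. Scx-/- replicate 3 was the low library, and the other 5 lay close together. The log2 difference was -0.04 (SE 0.22) with a 95% interval of the fold from 0.692 to 1.36. Itgb1 had 17.3 to 33.4 times the RPKM of Itgb5 in the 6 libraries, a ratio chosen after the values were seen.

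Itgav (ENSMUSG00000027087, chr2:83564554-83647073, plus strand) encodes the RGD-binding subunit that can pair with beta1 or beta5. The RPKM of Itgav was 6.03, 6.95 and 5.48 in Scx-/- and 7.39, 4.97 and 8.0 in Scx+/+. The highest and the lowest library were both Scx+/+. The log2 difference was -0.12 (SE 0.24). An exon of Gm13684, a long intergenic RNA on the other strand, overlaps 634 bases of its exons, 5.90% of their length, and the strand setting of the counting is not given in the sources used here.

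Itga5 encodes the classical fibronectin receptor subunit (ENSMUSG00000000555, chr15:103174720-103197194, minus strand) and lies on the chromosome of Scx. Its RPKM was 4.76, 3.09 and 1.77 in Scx-/- and 4.53, 3.95 and 3.29 in Scx+/+. The 2 lowest libraries were Scx-/-, but so was the highest. The means were 3.21 ± 1.5 and 3.93 ± 0.619 RPKM (SD, n = 3 each), a log2 difference of -0.38 (SE 0.35, limma unadjusted p = 0.311, adjusted p = 0.967), the most negative of the 10. Without Scx-/- replicate 3 the difference was -0.02.

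Itga8 (ENSMUSG00000026768, chr2:12028259-12223547, minus strand) encodes an RGD-binding subunit whose ligands include nephronectin. It measured 5.0, 7.64 and 4.30 RPKM in Scx-/- and 6.32, 4.64 and 6.34 RPKM in Scx+/+. Scx-/- libraries held both the highest and the lowest value, and the log2 difference was -0.06 (SE 0.27). The lincRNA E030013I19Rik on the other strand shares 369 bases with its exons, 5.07% of their length.

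Itga1 (ENSMUSG00000042284, chr13:115748287-115892172, minus strand) encodes a collagen-binding subunit that prefers type IV collagen. Its RPKM was 12.9, 12.6 and 18.9 in Scx-/- and 15.2, 20.5 and 15.3 in Scx+/+. Scx-/- replicate 3 and Scx+/+ replicate 2 were highest in their genotypes, and the other 2 libraries of each genotype lay close to each other, lower in Scx-/-. The means were 14.8 ± 3.53 and 17 ± 3.02 RPKM (SD, n = 3 each), a log2 difference of -0.21 (SE 0.22, limma unadjusted p = 0.358, adjusted p = 0.967). Over the alternatives the smallest unadjusted p for Itga1 was 0.0739, the lowest of any of the 10.

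Itga6 (ENSMUSG00000027111, chr2:71583673-71696473, plus strand) and Itga7 (ENSMUSG00000025348, chr10:128370869-128395333, plus strand) encode laminin-binding subunits, and alpha7 is the main one of differentiated muscle. Itga6 measured 17.5, 14.8 and 9.53 RPKM in Scx-/- and 16.7, 11.1 and 14.7 RPKM in Scx+/+. Itga7 measured 0.579, 0.621 and 1.26 RPKM in Scx-/- and 0.473, 1.94 and 0.332 RPKM in Scx+/+. The 2 libraries that were highest for Itga7 were the lowest for Itga6. The log2 differences between genotypes were -0.05 (SE 0.26) for Itga6 and 0.13 (SE 0.62) for Itga7. Itga7 was the most variable of the 10 genes, with a 5.83-fold range over the 6 libraries. Its 95% interval of the fold ran from 0.41 to 2.93, so that folds within that range could not be told from no change.

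Itga9 (ENSMUSG00000039115, chr9:118515808-118810121, plus strand) encodes a receptor subunit for tenascin and related ligands. It measured 8.91, 8.85 and 6.83 RPKM in Scx-/- and 9.17, 6.75 and 7.82 RPKM in Scx+/+. The range over all 6 libraries was 1.36-fold, the narrowest of the 10 genes. The log2 difference was 0.05 (SE 0.21), which was below 0 under 3 other scalings of the libraries (-0.05 to -0.08).

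Itga4 (ENSMUSG00000027009, chr2:79095583-79173280, plus strand) encodes the VCAM1 and fibronectin receptor subunit known for its need in the epicardium. Itga4 stood at 0.710, 1.12 and 0.387 RPKM in Scx-/- and 0.753, 0.384 and 1.3 RPKM in Scx+/+. These values rest on 249 to 1247 reads per library, and they span 3.39-fold. The log2 difference was -0.09 (SE 0.54), with a 95% interval of the fold from 0.404 to 2.19. Exons of Cerkl on the other strand overlap 1124 bases of its exons, 8.04% of their length.

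Within each genotype, 1 library stood apart for most of these genes. Scx-/- replicate 3 and Scx+/+ replicate 2, the libraries with the highest cardiomyocyte marker sums, which Myh6, Tnnt2 and Actc1 followed and the other 3 markers did not, were the 2 lowest libraries for 6 of the 10 genes (Itga4, Itga6, Itga8, Itga9, Itgav and Itgb5) and the 2 highest for 2 (Itga1 and Itga7). Over all genes they were the 2 lowest for 18.3% and the 2 highest for 10.7%. In log2 units from the mean of the 6 libraries, Itga6 lay at -0.52 and -0.30 in this pair and between 0.09 and 0.35 in the other 4 libraries. Itga7 lay at 0.70 and 1.29 in the pair and between -0.95 and -0.21 in the others. For Itgb1 and Itga5 the pair was neither the 2 lowest nor the 2 highest libraries. Each library of the pair was still the highest of its genotype for Itgb1 (399 and 354 RPKM). Melusin (Itgb1bp2), a muscle protein that binds the beta1 tail, was at 80.0 and 85.1 RPKM in the pair and at 33.5 to 56.2 RPKM in the others. Scx+/+ replicate 2 also had the fewest reads (46427474) and the highest summed RPKM. It held 2252 values at the 0.095 RPKM put in for low ones, where no other library held more than 1465. Scx-/- replicate 3 had 59736350 reads and 1333 such values. The part of muscle content or of these library traits in these differences was not tested. With both libraries left out, 0 of the 10 genes were called, and the log2 differences of Itga6 (0.04) and Itgb5 (0.11) were above 0.

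**Figure D3:**
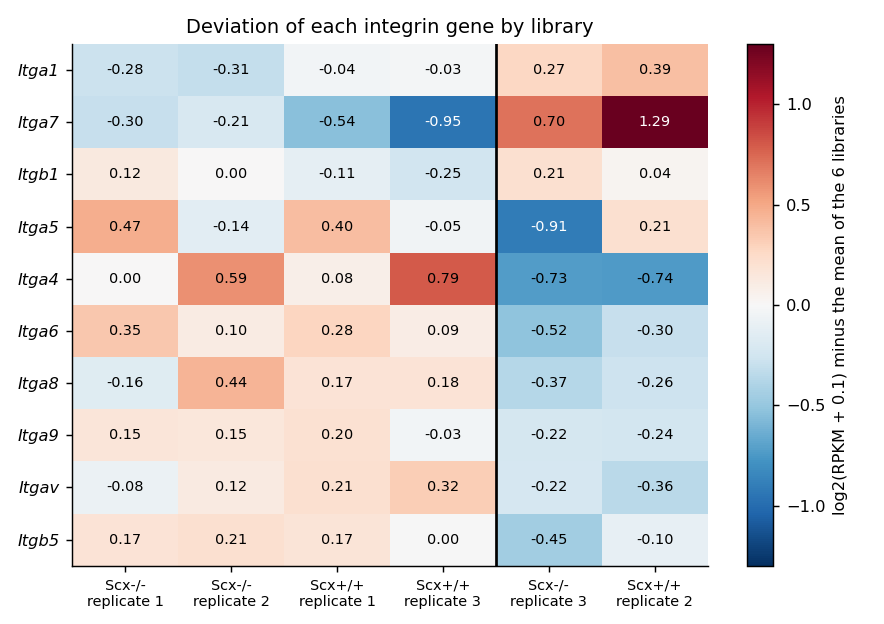
Deviation of log2(RPKM + 0.1) from the mean of the 6 libraries, by gene (rows) and library (columns), with red above and blue below the mean; the 2 libraries right of the line are Scx-/- replicate 3 and Scx+/+ replicate 2. Itga1, Itga7 and, by less, Itgb1 (0.21 and 0.04) are above their mean in both of these libraries, and the 6 lowest rows are below it.

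The balance of alpha subunit RNA was compared as the share of each gene in the summed RPKM of the 8 alpha genes, which was 48.4 to 60.5 RPKM per library. Itga1 and Itga6 were the main contributors in every library. Itga1 held 22.9%, 22.7% and 39.0% in Scx-/- and 25.2%, 37.8% and 26.9% in Scx+/+. Itga6 held 31.0%, 26.5% and 19.7% in Scx-/- and 27.5%, 20.4% and 25.7% in Scx+/+. Itga6 exceeded Itga1 in Scx-/- replicates 1 and 2 and Scx+/+ replicate 1, and Itga1 exceeded Itga6 in Scx-/- replicate 3 and in Scx+/+ replicates 2 and 3. Itga9 held 15.8%, 15.9% and 14.1% against 15.2%, 12.4% and 13.7%, a difference of 1.51 percentage points. The genotypes overlapped for all 8 shares, and with a two-sided exact permutation test (n = 3 each) adjusted over the 8 genes, each adjusted p was 1. The number of RPKM of Itgb1 for each RPKM of the alpha sum, a ratio chosen after the values were seen, was 6.68, 6.21 and 8.23 in Scx-/- and 5.27, 6.53 and 5.09 in Scx+/+ (exact permutation p = 0.2). Within each genotype this ratio was highest in Scx-/- replicate 3 and in Scx+/+ replicate 2. RNA ratios do not give the number of receptors at the surface.

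**Figure D4:**
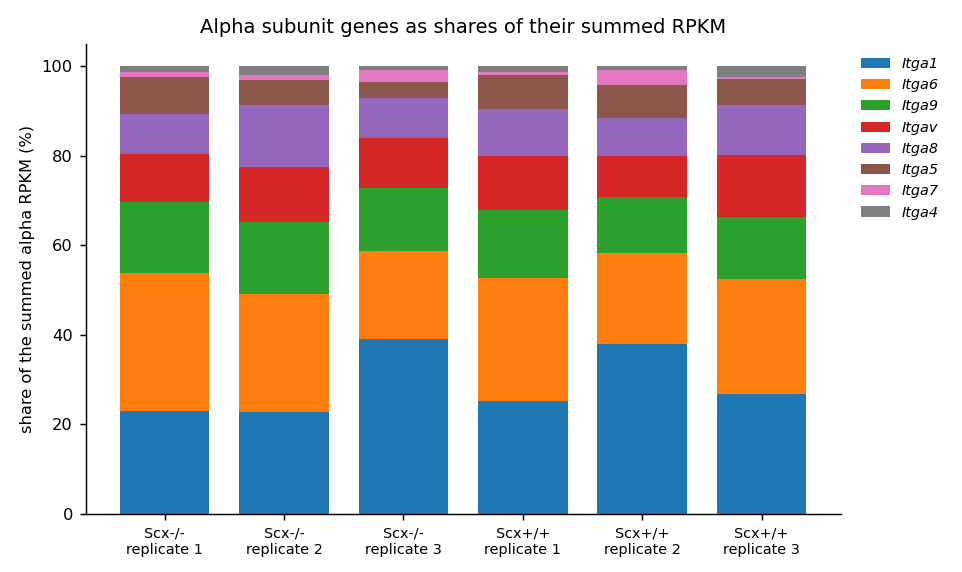
Share of each alpha subunit gene in the summed RPKM of the 8 alpha genes (vertical axis, percent) in each library, as stacked bars. The Itga1 share is 39.0% in Scx-/- replicate 3 and 37.8% in Scx+/+ replicate 2 and 22.7% to 26.9% in the other 4 libraries.

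Of the other integrin genes, 4 alpha (Itga2, Itga2b, Itga3 and Itgam) and 2 beta genes (Itgb3 and Itgb8) were in the table, and 0 of these 6 were called. The most abundant of the 4 alpha genes was Itga2, a collagen receptor subunit, at a mean of 2.16 RPKM, and the higher of the 2 beta genes was Itgb3, a partner of alphav, at 1.53 RPKM, so that Itgb1 and Itgb5 held most of the beta subunit RNA measured. The other 10 integrin genes were not analysed here.

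Around the receptors, 23 of 25 listed ligands, 14 of 16 regulators of the integrin tail and 21 of 22 proteins of the adhesion complex were in the table. With the 6 other subunits these made 64 genes, of which 1 rose and 4 fell at an unadjusted p below 0.05, 5 of 64 beside 3.89% of all genes (2.82% higher and 1.06% lower). Adjusted over all genes, limma called 0 of the 64. The median log2 difference of the 64 was -0.05.

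Among the ligands 2 of 23 fell and 0 rose, with a median log2 difference of -0.16. Both genes that fell encode chains of type IV collagen, the sheet collagen of basement membranes. Col4a1 was 36.4, 31.9 and 31.3 RPKM in Scx-/- and 50.5, 53.8 and 44.5 RPKM in Scx+/+, a log2 difference of -0.58 (SE 0.16, limma unadjusted p = 0.00552, adjusted p = 0.967). Col4a2 was 22.5, 21.2 and 17.8 RPKM in Scx-/- and 31.6, 31.1 and 28.3 RPKM in Scx+/+, a log2 difference of -0.57 (SE 0.16, limma unadjusted p = 0.00726, adjusted p = 0.967). All Scx-/- libraries lay below all Scx+/+ libraries for both chains. Col1a1, a chain of fibrillar collagen, likewise did not overlap (7.34 to 8.09 against 8.36 to 15.8 RPKM) but was not called (log2 difference -0.50, limma unadjusted p = 0.0746). Periostin (Postn), a valve matrix protein and the most abundant ligand, was 216, 296 and 387 RPKM in Scx-/- and 195, 271 and 161 RPKM in Scx+/+ and was not called. The subunit that binds type IV collagen, Itga1, had a log2 difference of -0.21 with an interval that holds 0, as given above.

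Of the 14 regulators that switch the beta tail on or off, 1 rose and 0 fell. Rap1a, a small GTPase that acts upstream of talin, was 33.3, 31.3 and 36.4 RPKM in Scx-/- and 24.4, 26.5 and 22.1 RPKM in Scx+/+. The genotypes did not overlap, and the log2 difference was 0.47 (SE 0.16, limma unadjusted p = 0.0161, adjusted p = 0.967). The most abundant regulator, the kindlin gene Fermt2, was 68.2 ± 9.78 RPKM in Scx-/- and 63.4 ± 4.41 RPKM in Scx+/+ (SD, n = 3 each) and was not called.

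Of 21 genes of the adhesion complex, 2 fell and 0 rose. Parvb encodes a parvin, which joins integrin-linked kinase to actin. It was 1.11, 0.727 and 0.732 RPKM in Scx-/- and 1.57, 1.95 and 2.98 RPKM in Scx+/+, without overlap (log2 difference -1.22, SE 0.36, limma unadjusted p = 0.00847, adjusted p = 0.967). Tns1, a tensin that links the beta tail to actin, was 7.32, 5.90 and 6.58 RPKM against 9.56, 8.01 and 11.1 RPKM (log2 difference -0.52, SE 0.20, limma unadjusted p = 0.0298, adjusted p = 0.967). When each library was left out in turn, Parvb, Rap1a, Col4a1 and Col4a2 were called all 6 times and Tns1 2 times. Rap1a was not called with the same sum over protein-coding genes (limma unadjusted p = 0.0761) or with the exon length and GC trend removed (limma unadjusted p = 0.105), so that 0 pathway genes rose under either. Parvb was not called with Scx-/- replicate 3 and Scx+/+ replicate 2 both left out (limma unadjusted p = 0.0617), and Tns1 was not called with the length and GC trend removed (limma unadjusted p = 0.0577) or without an intensity trend in limma (unadjusted p = 0.0509). Vcl (vinculin), the most abundant gene of this list, was 43.7 ± 3.25 RPKM in Scx-/- and 48.7 ± 2.12 RPKM in Scx+/+ (SD, n = 3 each) and was not called.

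**Figure D5:**
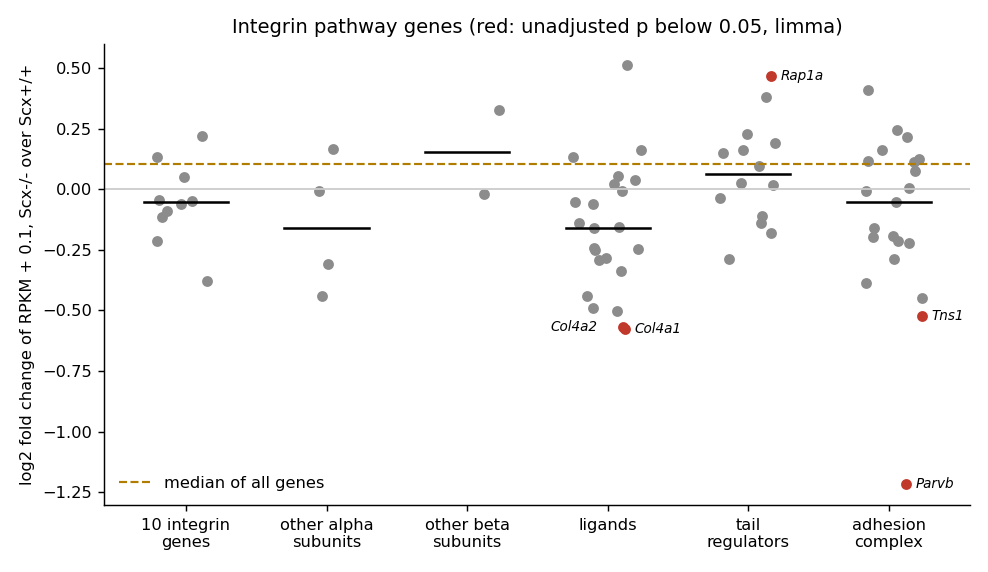
Log2 fold change of RPKM + 0.1 (vertical axis, Scx-/- over Scx+/+) of the 10 integrin genes and of the 5 pathway lists, 1 point per gene, red where the unadjusted p is below 0.05, with black lines for list medians and a dashed line for the median of all genes. No integrin gene is red, and the 5 red genes are Col4a1, Col4a2, Rap1a, Parvb and Tns1.

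Among the 13827 genes that averaged 1 RPKM or more, those whose levels ran most like Itgb1 over the 6 libraries were Mob3c (Pearson r = 0.995), Nhp2l1 (r = 0.995) and Jmjd6 (r = 0.994) on log2(RPKM + 0.1). All points come from the same 6 libraries and share their scaling, and these r values are a description.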

How the data were processed

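Of 3 Scx-/- and 3 Scx+/+ atrioventricular canal regions at E15.5, the deposited table holds RPKM for 18810 genes. By their methods and notes, the authors aligned the reads with TopHat 1.4.1 to mm9, used easyRNASeq to count reads over Ensembl gene models and to compute RPKM, dropped genes with few reads in all libraries and gave low values a common one (0.095 RPKM in the table). Depth was solved for from RPKM and the exon lengths of the mm9 GENCODE annotation, which matched 18695 identifiers, and 98.5% to 98.6% of the values of a library that stood for under 1000 reads then lay within 0.1 of a whole read. No count test was run. No column of another sample was in the table (0).

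Levels were tested as log2(RPKM + 0.1), computed from the deposited RPKM, with limma 3.58.1 in R 4.3.3 (moderated variances, intensity trend, no covariate, Benjamini-Hochberg over 18810 genes). Shares and ratios were compared by exact two-sided permutation over the 20 splits of 3 against 3 (Python 3.11.15, scipy 1.17.1). The labels give no preparation or sequencing batch, and p-values measure the spread between these embryos. The integrin genes, the pathway and marker lists and the tests were chosen with earlier results of these data known. Named are the 10 integrin genes, Scx, every pathway gene that was called or did not overlap between genotypes, the most abundant gene of each list, and the 3 genes most like Itgb1. Itgb1bp2 and the cardiomyocyte sums were named after their values were seen.

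Alternatives were pseudocounts of 0.01 and 1, the 13827 genes that averaged 1 RPKM or more, no intensity trend in limma, the study's own one-way ANOVA on RPKM and on log2 RPKM, quantile normalization, the median of all genes set to 0, the same sum over protein-coding genes, the replicate number as a block, sex as a covariate, removal of an exon length and GC trend (18695 genes), each library left out, and 2 libraries left out together. Sex is not given by the labels and was inferred from genes of the Y chromosome and Xist. Replicate 2 of each genotype was taken as female, with Xist at 21.7 RPKM in Scx-/- and 12.7 in Scx+/+, and the other libraries as male. The main limma fit was tested on simulated log2 values, with noise drawn separately for each gene. Other marker lists (smooth muscle, epicardium, macrophage, erythroid, megakaryocyte, glia and melanocyte; 23 of 26 genes in the table) held 3 called genes, all higher in Scx-/- (Cd68, Dct and Mlana). Valve mesenchyme held 1 (Lum, higher), cardiomyocyte 1 (Ryr2, lower) and endothelium 0. Over all genes 3.89% were called at this unadjusted level, 2.82% higher and 1.06% lower. After adjustment limma called 0 genes.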

Additional observations from a re-analysis of the deposited data

How the results depend on the processing

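None of the 10 integrin genes was called under any of the 19 alternatives, and the lowest unadjusted p among 188 values for single genes was 0.0739. Of these 188, 165 kept the direction of the log2 difference and 23 did not. The genes near 0 changed sign: Itga9 was -0.05 with quantile normalization, -0.06 with each library's median set to 0 and -0.08 with the same sum over protein-coding genes. Itga7 was -0.16 as the log2 ratio of the mean RPKM, the scale of the ANOVA on RPKM, and Itga6 was 0.04 and Itgb5 0.11 with both Scx-/- replicate 3 and Scx+/+ replicate 2 left out. With each library left out in turn, log2 differences ran from -0.48 to 0.29 for Itga4, -0.23 to 0.20 for Itga6, -0.31 to 0.81 for Itga7, -0.29 to 0.11 for Itga8, -0.06 to 0.18 for Itga9, -0.32 to 0.02 for Itgav and -0.16 to 0.17 for Itgb5, while they stayed below 0 for Itga1 (-0.40 to -0.07) and Itga5 (-0.71 to -0.02) and above 0 for Itgb1 (0.15 to 0.29). Differences in alpha share, in percentage points, ran from -7.16 to 2.17 for Itga1, -0.41 to 0.38 for Itga4, -2.25 to 0.15 for Itga5, -1.46 to 4.2 for Itga6, -0.60 to 0.90 for Itga7, -1.16 to 1.26 for Itga8, 0.85 to 2.20 for Itga9 and -1.60 to 0.83 for Itgav, and with both libraries left out were 0.37 for Itga5 and 0.39 for Itga7. The cause of these changes of sign was not tested. The Itgb1 difference stayed above 0 under the other scalings of the libraries (0.08 to 0.11), but was smaller than the 0.22 of the main fit.

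Over all genes, 731 calls became 426 with the same sum over protein-coding genes, 1549 without Scx+/+ replicate 2 (539 to 1549 over the libraries left out in turn) and 1587 with both libraries left out. The share of calls that were higher in Scx-/- was 72.6%, against 49.9% with quantile normalization, 43.5% with the median set to 0, 45.2% with the length and GC trend removed and 36.4% with the same protein-coding sum, and these scalings moved the median log2 difference of all genes from 0.10 to between -0.02 and 0.02. Of the 64 pathway genes 5 were called, and 9 without Scx+/+ replicate 2 (4 to 9 over the libraries left out).

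Replicate numbers are shared by the genotypes, but same-numbered libraries did not deviate together over genes (r = 0.09, -0.22 and -0.19), and not every library was most like its own number. The highest r between the genotypes was 0.32, for Scx-/- replicate 3 with Scx+/+ replicate 2, the pair set apart above. With the replicate block, 573 genes, 0 of the 10 integrin genes and 5 pathway genes were called. The 10 genes rested on 97 reads or more in every library, with the fewest for Itga7 (97 to 383).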
